A study of Mus musculus with 2 samples.

Results

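Gc, which encodes the vitamin D-binding protein, and Ttr, which encodes transthyretin, were followed across the hormone cells of mouse pancreatic islets. They are 2 of the 31053 genes counted. Both were chosen by their measured levels in this experiment, among them the difference between the libraries in β cells, so those differences are described here without a test. The study set islets of mice labelled HFD, a high-fat diet used as a model of prediabetes, beside islets of mice labelled CD, which the labels do not expand. Both groups were C57BL/6J mice aged 13 weeks, and each group gave 1 droplet library from a number of mice that the labels leave unstated. With 1 library per group no difference has a replicate check, and every interval below is a 95% interval for counting error only.

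The vitamin D-binding protein is a relative of albumin that liver cells release into plasma, where it carries vitamin D and its hydroxylated forms and takes up actin set free by broken cells. Transthyretin is a plasma carrier of thyroxine and, through its partner retinol-binding protein (Rbp4), of retinol, and it is made chiefly by the liver and the choroid plexus. In the islet both genes are best known from the glucagon-producing α cells.

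Gc (ENSMUSG00000035540) lies on the minus strand of chromosome 5 at 89417522 to 89457898 in GRCm38, the assembly also called mm10, with 2 annotated coding transcripts. Ttr (ENSMUSG00000061808) has 1 annotated transcript. The RefSeq sequence just before the start of Gc is shown because the FOXA factors, which act on liver and islet genes, have a motif that can be looked for in it. It spans the 250 bases of chr5:89457899-89458148 on the minus strand of GRCm38.p6, in lower case throughout since no match was found.
Gc promoter: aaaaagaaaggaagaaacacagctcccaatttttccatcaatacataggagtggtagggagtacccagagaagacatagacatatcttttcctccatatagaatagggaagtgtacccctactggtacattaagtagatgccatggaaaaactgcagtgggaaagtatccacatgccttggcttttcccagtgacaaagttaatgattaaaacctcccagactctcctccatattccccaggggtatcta
The motif searched was TGTTTAC on either strand. It had 0 matches in the Gc window and was present in 1040 of the 32851 promoter windows of the same length in the RefSeq table (3.17%). This says only that these letters are not in the window shown.

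A barcode was taken as a cell with at least 1500 unique molecular identifiers (UMIs, each marking 1 captured RNA molecule), at least 500 genes and at most 15% of UMIs from mitochondrial genes. This kept 12062 cells of the HFD library, which held 271527648 UMIs, and 9667 cells of the CD library, which held 265836346. Cells were classed by the share of their UMIs on hormone genes, with the other hormones below their limits. The β class (Ins1 and Ins2, at least 30%) held 7433 HFD and 6515 CD cells. The α class (Gcg, at least 10%) held 2005 HFD and 1272 CD cells, the δ class (Sst, at least 3%) 662 HFD and 570 CD cells, and the PP class (Ppy, at least 20%) 535 HFD and 328 CD cells. Median UMIs per β cell were 24050 in HFD and 26671 in CD, and median mitochondrial shares were 3.78% in HFD and 2.70% in CD. With the hormones that set the classes left out, and on the CPM scale given below, 7 of 7 β markers were highest in the β class in both libraries and 5 of 6 α markers were highest in the α class in both. Of the δ markers, 4 of 4 were highest in the δ class in HFD and 3 of 4 in CD, and Pyy, the 1 PP marker, was highest in the PP class in both. The 2 libraries shared 26 kept barcodes.

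In β cells Gc differed more between the libraries than Ttr did, and its difference there was larger than in the other classes. Levels are given as counts per 1000000 UMIs (CPM) after TMM scaling, which sets the 8 class sums (4 classes in 2 libraries) on 1 scale by their shared genes. In β cells Gc stood at 104.5 CPM in HFD, from 12717 UMIs, against 21.8 CPM in CD, from 2842 UMIs. The HFD level was 4.79-fold the CD level (interval 4.60 to 4.99). In α cells the values were 123 CPM in HFD and 97.8 CPM in CD, a ratio of 1.26 (1.18 to 1.35). In δ cells Gc had 84.4 CPM in HFD and 76.1 CPM in CD, and in PP cells 113 CPM in HFD and 117 CPM in CD. The interval of the ratio held 1 in both of these, at 0.978 to 1.26 in δ cells and 0.868 to 1.09 in PP cells.

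Ttr followed a different order of classes. In β cells it stood at 2620 CPM in HFD, from 318833 UMIs, and 1409 CPM in CD, from 183503 UMIs, a ratio of 1.86 (1.85 to 1.87). In α cells it reached 37494 CPM in HFD and 28654 CPM in CD, a ratio of 1.31 (1.30 to 1.31). The δ cells held 428 CPM in HFD and 399 CPM in CD, a ratio of 1.07 (1.01 to 1.13). The PP cells held 2501 CPM in HFD and 2612 CPM in CD, a ratio of 0.958 (0.935 to 0.981). In PP cells alone both ratios lay below 1, with the interval for Gc holding 1. For Ttr the direction there turned with 1 way of taking away free RNA, to a log2 ratio of 0.20.

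**Figure D1:**
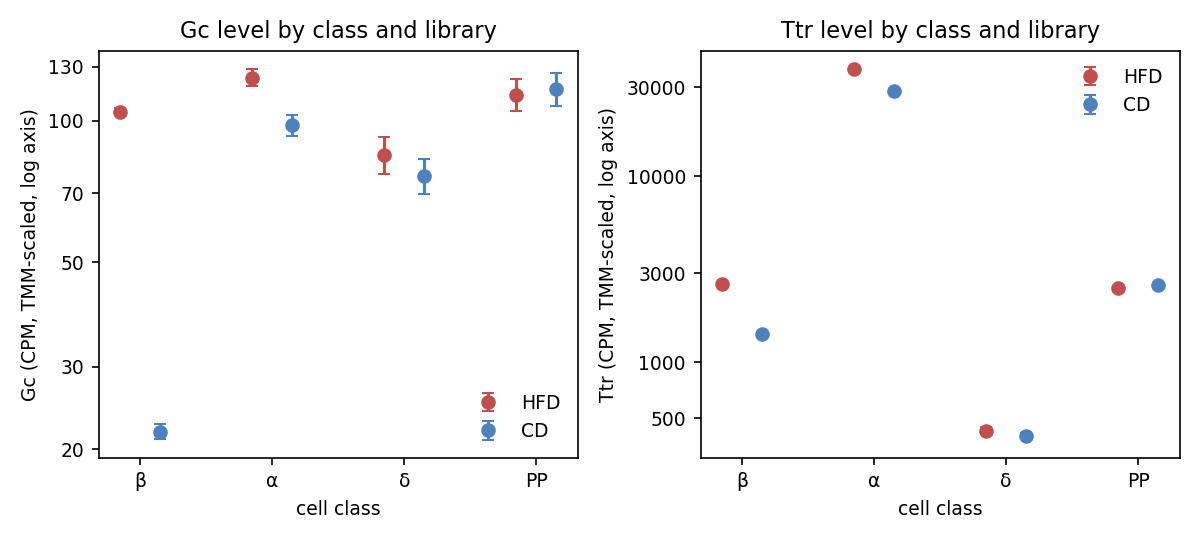
Level of Gc (left) and Ttr (right) in CPM after TMM scaling, on log axes, in the β, α, δ and PP classes of the HFD library (red) and the CD library (blue), 1 library per group; bars are 95% counting intervals and are narrower than the points for Ttr. Gc in CD β cells, at 21.8 CPM, lies below the other 7 values, while Ttr is highest in α cells of both libraries.

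Among the 6892 genes with at least 10 CPM in β cells of either library, 3.79% were past 1.5-fold higher in HFD, and both Gc and Ttr were among them; 1.9% were past 1.5-fold lower. Past 4-fold higher lay 9 genes, 0.131% of those tested, and Gc was the 5th highest of all by ratio while Ttr was the 96th. Since these ratios were known when the genes were picked, the ranks are a description. In α cells, where 4.25% of 6709 genes were past 1.5-fold higher in HFD, 0 of the 2 were; the same was so in δ cells (4.16% of 6686 genes) and in PP cells (4.54% of 6611 genes). The median log2 ratio over all genes tested lay between -0.07 in δ cells and 0.01 in α cells.

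**Figure D2:**
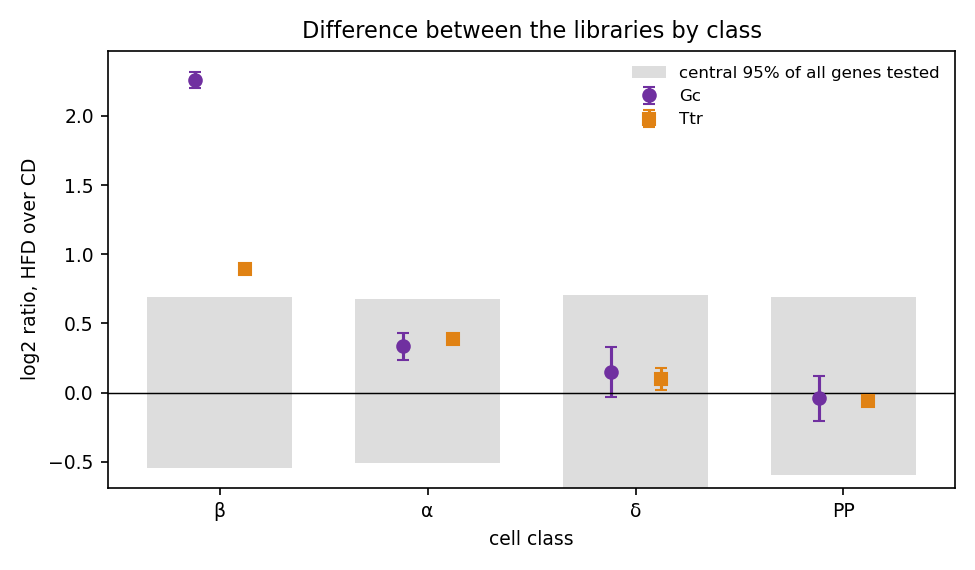
Log2 ratio of HFD over CD for Gc (purple circles) and Ttr (orange squares) in each class, with 95% counting intervals; the grey boxes span the central 95% of all genes tested in that class, with no replicates. In β cells Gc (2.26) and Ttr (0.90) lie above the box, and in α, δ and PP cells both lie inside it.

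The order of classes for Gc hung on the scaling. After TMM scaling the order in HFD from the highest was α, PP, β and δ. There α cells had 1.18-fold the β level (1.13 to 1.23), the ratio of PP to β was 1.09 (0.999 to 1.18) and that of PP to α was 0.920 (0.840 to 1.01), so PP cells were apart from neither neighbour beyond counting error. The HFD δ level was 0.808 times the β level (0.735 to 0.886). In CD the order was PP, α, δ and β, with every neighbouring pair apart beyond counting error, and α cells had 4.48-fold the β level (4.21 to 4.78). Insulin transcripts fill most of a β cell's UMIs, and the scaling bears on this comparison. By plain total UMIs the order was δ, α, PP and β in both libraries. Gc then had 141 CPM in δ, 137 CPM in α, 94.4 CPM in PP and 63.9 CPM in β cells of HFD, and 125 CPM in δ, 111 CPM in α, 103 CPM in PP and 14.0 CPM in β cells of CD. The HFD δ cells, last after TMM scaling, stood 2.21-fold above β cells (2.01 to 2.43) and were not apart from α cells beyond counting error, with a ratio between 0.930 and 1.14. In CD the α and PP cells were not apart, with a ratio between 0.974 and 1.18. The α cells were then 2.15-fold above β cells in HFD and 7.92-fold in CD, so under either scaling the excess of α over β was smaller in HFD than in CD.

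For Ttr the α cells came first in both libraries, at 14.3-fold the β level in HFD (14.2 to 14.4) and 20.3-fold in CD (20.2 to 20.5). The δ cells came last in both, and α cells stood 87.6-fold above them in HFD and 71.7-fold above them in CD. These places were kept by plain total UMIs, with α cells 26.1-fold above β cells in HFD and 35.9-fold in CD. Between these ends, PP cells had 0.955 times the β level in HFD (0.938 to 0.971) and 1.85-fold the β level in CD (1.82 to 1.89). By plain total UMIs, PP cells were above β cells in both libraries, 1.30-fold in HFD and 2.56-fold in CD.

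Counted per cell, Gc was a gene of few molecules and Ttr of many. A β cell held a mean of 1.71 Gc UMIs in HFD and 0.436 in CD, with 16 the most in any HFD and 10 the most in any CD β cell. An α cell held a mean of 1.09 Gc UMIs in HFD and 1.13 in CD. The β cells, the most numerous and the deepest, carried 77.1% of all Gc UMIs in kept cells of HFD, against 48.5% in CD. They were 61.6% of kept cells in HFD and 67.4% in CD. The α cells carried 13.3% of Gc UMIs in HFD and 24.6% in CD. For Ttr the division hardly moved: α cells carried 64.3% of its UMIs in HFD and 63.3% in CD. An α cell held a median of 240 Ttr UMIs in HFD and 256.5 in CD, a β cell a median of 27 in HFD and 19 in CD.

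Shares of cells with a Gc UMI were compared after each cell was thinned at random to 5000 UMIs, with shallower cells left out. At that depth 25.8% of 7220 HFD β cells were positive (24.8 to 26.8), against 6.37% of 5923 CD β cells (5.76 to 7.02); 213 HFD and 592 CD β cells were too shallow. Before thinning the shares were 68.8% in HFD and 29.4% in CD. At 5000 UMIs the α cells were positive in 47.5% in HFD and 41.5% in CD, the δ cells in 44.3% in HFD and 41.0% in CD, and the PP cells in 34.4% in HFD and 38.7% in CD. The intervals of the 2 libraries did not overlap in β cells and in α cells, with a wider gap in β cells. They overlapped in δ and PP cells. The difference in β cells was among the values by which Gc was chosen, so this is a description and no test.

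Free RNA from broken cells enters every droplet, and yardsticks for it were read in the same way. Endothelial-like cells, named from Pecam1, Cdh5, Plvap, Kdr and Emcn and taken as a type that should lack islet transcripts, had a Gc UMI in 9 of 222 cells in HFD (4.05%, 1.87 to 7.56) and in 2 of 144 cells in CD (1.39%, 0.169 to 4.93) at 5000 UMIs. Their median depths before thinning were 4291 UMIs in HFD and 4405 in CD, far below those of β cells. The β share lay above that of endothelial-like cells in both libraries with no overlap of the intervals. Macrophage-like cells had a Gc UMI in 3 of 48 cells in HFD (6.25%, 1.31 to 17.2) and 1 of 57 in CD (1.75%, 0.0444 to 9.39). Their interval lay below that of β cells in HFD and overlapped it in CD. Barcodes with only 10 to 100 UMIs, which hold free RNA and no cell, were pooled into bundles of 5000 UMIs. Of these, 50 of 321 in HFD (15.6%, 11.8 to 20.01) and 34 of 294 in CD (11.6%, 8.14 to 15.8) held a Gc UMI. The HFD β cells lay above such pure free RNA and the CD β cells below it. By total UMIs Gc had 34.1 CPM in HFD and 23.7 CPM in CD in the barcodes of 10 to 100 UMIs. The log2 ratio there, 0.53, had an interval that held 0 (-0.11 to 1.18). In barcodes of 100 to 500 UMIs it had 54.4 CPM in HFD and 19.0 CPM in CD, a log2 ratio of 1.52 (1.33 to 1.70), so free Gc differed beyond counting error in these barcodes but not in the emptier ones. Where the free share of each β cell's UMIs was estimated from hormones foreign to it, free RNA came to 9.51% of the Gc of HFD β cells and 22.8% of that of CD β cells with the profile of 10 to 100 UMI barcodes. With the profile of 100 to 500 UMI barcodes it came to 17.1% in HFD and 19.8% in CD. True mixed cells push these estimates up.

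**Figure D3:**
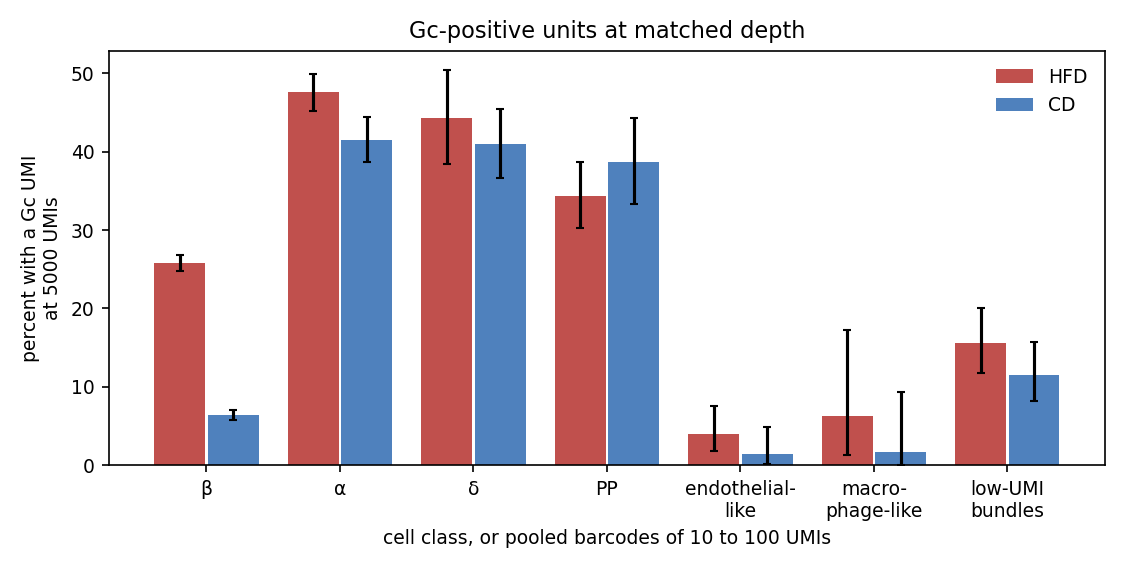
Percent of cells, or of pooled bundles of barcodes with 10 to 100 UMIs, with at least 1 Gc UMI at 5000 UMIs in the HFD library (red) and the CD library (blue); bars start at 0 and lines are exact 95% intervals, with 1 library per group. The β cells of HFD, at 25.8%, stand above their endothelial-like cells and bundles, and those of CD, at 6.37%, stand between their endothelial-like cells and bundles. The interval of the few macrophage-like cells overlaps that of β cells in CD.

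Gc molecules were spread over HFD β cells less evenly than 1 shared rate gives, though not gathered in a few cells. At 5000 UMIs 25.8% of HFD β cells were positive (24.8 to 26.8), where 1 rate for all of them gives 27.3%, and 6.37% of CD β cells were (5.76 to 7.02), where 1 rate gives 6.47%. The variance of the counts was 1.14 times their mean in HFD and 1.04 times in CD, values that a low mean keeps near 1. At 10000 UMIs 42.6% of HFD β cells were positive (41.5 to 43.8) against 46.5% for 1 rate, with a variance 1.27 times the mean, and 12.2% of CD β cells (11.4 to 13.1) against 12.8%, with a variance 1.13 times the mean. The upper tail at 5000 UMIs was heavier than 1 rate gives: 55 HFD β cells held 3 Gc UMIs (0.762% against 0.392%) and 8 held 4 or more (0.111% against 0.0334%). In CD only 2 cells held 3 (0.0338% against 0.00466%) and 0 held 4 or more.

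**Figure D4:**
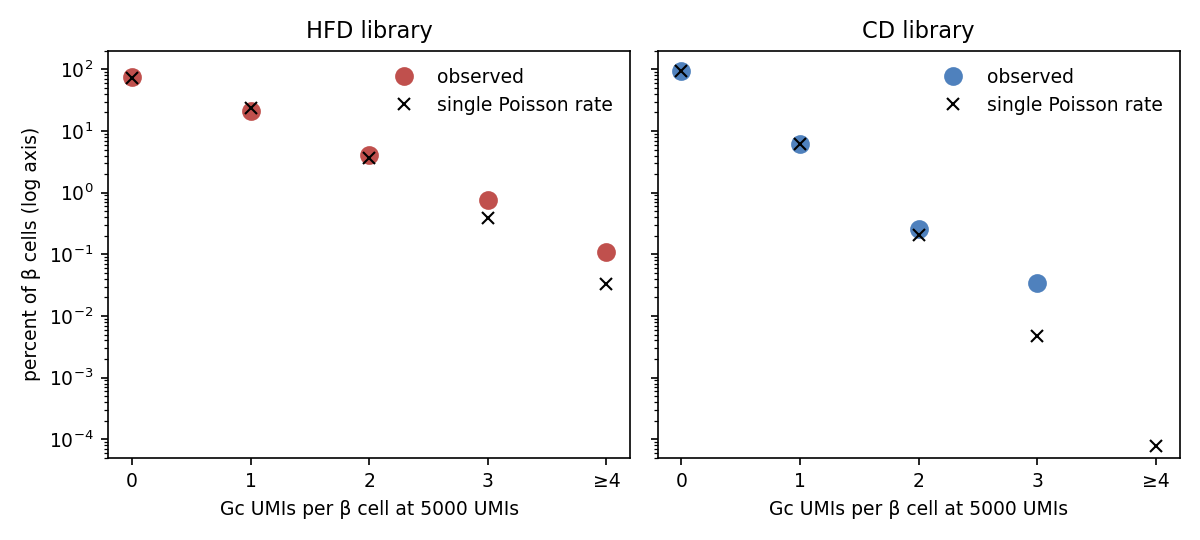
Percent of β cells (log axis) with 0, 1, 2, 3 or at least 4 Gc UMIs at 5000 UMIs in the HFD library (left, 7220 cells) and the CD library (right, 5923 cells); filled points are observed and crosses are what a single Poisson rate with the same mean gives. Points and crosses lie close up to 2 UMIs and part at 3, and no CD β cell held 4 or more.

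Some genes of β cell maturity stood at near levels in HFD β cells grouped by their Gc UMIs after thinning. Gc counts at that depth lay near 1 shared rate, so a cell's group was set largely by sampling. Near levels between such groups cannot show whether Gc goes with maturity. The HFD β cells with 0, 1 and at least 2 Gc UMIs at 5000 UMIs numbered 5356, 1502 and 362. Ucn3, which encodes urocortin 3 and marks mature β cells, had 178, 173 and 177 CPM by total UMIs in those 3 groups, and Mafa, a β cell transcription factor, had 113, 108 and 113 CPM. G6pc2, a glucose-6-phosphatase subunit of β cells, had 556, 569 and 567 CPM. Of other β cell genes, Nkx6-1 had 145, 137 and 133 CPM, Slc2a2 228, 223 and 217 CPM, and Ero1lb 384, 381 and 406 CPM. Ttr had 1523, 1696 and 1783 CPM in these groups. Aldh1a3, an aldehyde dehydrogenase known from β cells that lose maturity, had 2.65, 2.80 and 6.08 CPM, the last from 11 UMIs. Read the other way, the 374 HFD β cells with an Aldh1a3 UMI had 83.6 Gc CPM by total UMIs (78.6 to 88.9) and the 7059 without had 62.6 (61.5 to 63.7). Only 26 CD β cells had an Aldh1a3 UMI, at 26.9 Gc CPM, against 13.9 in the 6489 without. Cells with an Aldh1a3 UMI were also deeper, with a median of 28980.5 UMIs in HFD against 23865 in those without. With Cd79a, a B cell receptor component found here in many β cells, the direction was the opposite: Gc was at 50.1 CPM in the 1379 HFD β cells with a Cd79a UMI and at 67.2 CPM in the 6054 without, and at 12.5 CPM in the 3330 CD β cells with one and 16.2 CPM in the 3185 without. The part of cell depth in these splits was not tested.

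The Gc difference was present in every slice of the β class that was looked at. By total UMIs, HFD β cells had between 3.83-fold (cells under 10000 UMIs) and 5.21-fold (20000 to 30000 UMIs) the Gc of CD β cells of the same depth. Across bins of mitochondrial share the ratio lay between 3.05 (under 2%, 56 HFD and 873 CD cells) and 5.01 (4 to 6%). In β cells with under 0.1% of UMIs on Gcg, the glucagon gene, Gc had 63.4 CPM in 6590 HFD cells and 13.1 CPM in 5645 CD cells, a ratio of 4.84 (4.64 to 5.06). In β cells with 0.5 to 10% Gcg the ratio was 2.36 (2.05 to 2.71), with 71.8 CPM in HFD and 30.5 CPM in CD.

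The Ttr difference in β cells did not hold in every slice. It was 1.67 to 2.03 in the 3 bins from 10000 UMIs upward. In β cells under 10000 UMIs Ttr was lower in HFD, at 1545 CPM in 572 cells, than in CD, at 2258 CPM in 748 cells, a ratio of 0.684 (0.660 to 0.710). In cells with 6 to 15% mitochondrial UMIs it had 1491 CPM in HFD and 1503 CPM in CD. The CD β cells with the most glucagon RNA were shallow by median depth, though Gcg within each depth bin was not measured. The 614 CD β cells with 0.5 to 10% Gcg had a median of 3335.5 UMIs, and the 433 such HFD cells a median of 28126. Those cells held 28.6% of β Ttr UMIs in HFD and 26.4% in CD. In CD that was 48362 Ttr UMIs, while all 748 β cells under 10000 UMIs held 6557. Most of the Ttr of that CD group therefore lay in its deeper cells, which its median depth does not show. In the β cells with under 0.1% Gcg, Ttr had 1215 CPM in HFD and 691 CPM in CD, a ratio of 1.76 (1.75 to 1.77), where the whole class had 1.77 by total UMIs. With every β cell weighted alike in place of every UMI, the log2 ratio of the class was 0.59.

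At matched depth nearly every β cell had Ttr, so the count per cell says more than the share. At 5000 UMIs 98.2% of HFD and 94.8% of CD β cells were positive, with a median of 5 Ttr UMIs in HFD and 3 in CD. Endothelial-like cells were positive in 61.3% in HFD and 37.5% in CD, with medians of 1 in HFD and 0 in CD. The β means, 7.86 Ttr UMIs in HFD and 4.45 in CD, lay below those of the bundles of low-UMI barcodes, 19.8 in HFD and 14.6 in CD. Free RNA estimated from foreign hormones came to 44.0% of β cell Ttr in HFD and 43.7% in CD. Free Ttr was itself higher in HFD, at 3960 CPM against 2929 CPM in CD by total UMIs in the barcodes of 10 to 100 UMIs. In endothelial-like cells Ttr stood at 517 CPM in HFD against 190 CPM in CD. The highest single endothelial-like cell held 240 of their 1403 Ttr UMIs in HFD and 91 of their 327 in CD. With the estimated free RNA taken away, the log2 ratio of Ttr in β cells was 0.89 with the 10 to 100 UMI profile and 0.86 with the profile of barcodes of 100 to 500 UMIs, while that of Gc was 2.49 with the first profile.

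**Figure D5:**
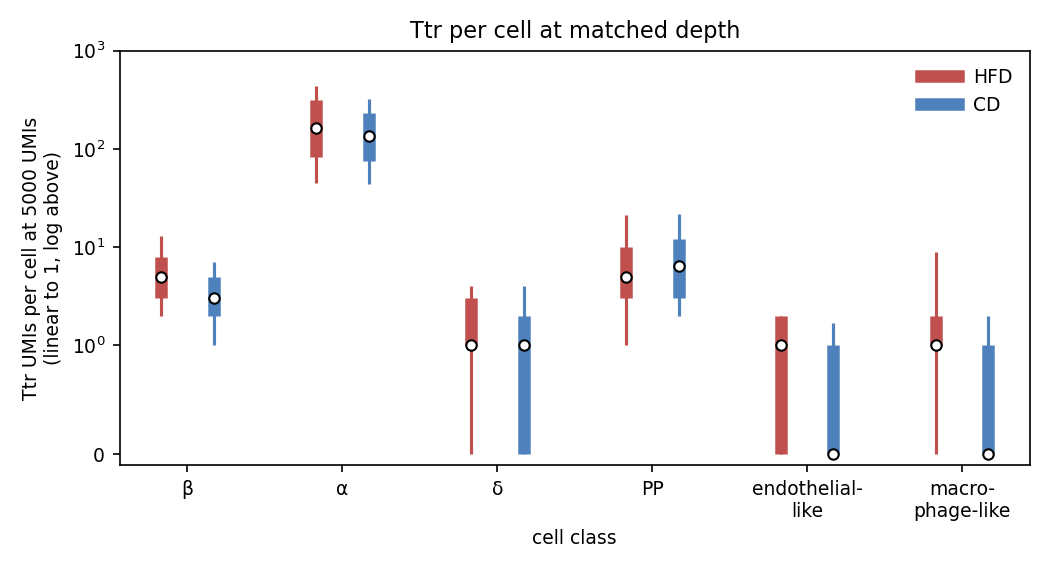
Ttr UMIs per cell at 5000 UMIs by class in the HFD library (red) and the CD library (blue); circles are medians over cells, thick bars the interquartile range and thin lines the 10th to 90th percentile, on an axis that is linear to 1 and logarithmic above, with 1 library per group. The α cells stand far above every other class, and the β median is 5 in HFD and 3 in CD.

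Within α cells Ttr was lower where the share of Ppy, the pancreatic polypeptide gene, was higher, and Gc hardly differed. The α cells with under 1% Ppy, 1043 in HFD and 897 in CD, had 54994 Ttr CPM in HFD and 37800 in CD by total UMIs, the scale of this paragraph, a ratio of 1.45. Those with 1 to 5% Ppy had 36488 CPM in HFD and 24365 in CD, a ratio of 1.498. Those with 5 to 20% Ppy, 407 in HFD and 139 in CD, had 18860 CPM in HFD and 18187 in CD, a ratio of 1.04. Gc was between 129 and 145 CPM in the 3 HFD groups and between 101 and 112 CPM in the 3 CD groups. Cells of this last group made up 20.3% of α cells in HFD and 10.9% in CD, and the ratio of the whole class, 1.29 by total UMIs, lay below that of its first 2 groups.

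In PP and δ cells a large part of the Ttr signal sat in a minority of cells, those with more Gcg. The PP cells with 2 to 10% Gcg, 80 in HFD and 47 in CD, had 7151 Ttr CPM in HFD and 6206 in CD by total UMIs and held 53.9% of the class's Ttr UMIs in HFD and 49.1% in CD. PP cells with under 0.5% Gcg had 1087 CPM in HFD and 1403 CPM in CD, a ratio of 0.775 (0.747 to 0.803). Among δ cells, the 23 HFD and 17 CD cells with at least 0.5% Gcg held 1256 of the 2399 Ttr UMIs in HFD and 1609 of the 2755 in CD. The other δ cells had 358 CPM in HFD and 289 CPM in CD, where endothelial-like cells of the same libraries had 517 CPM in HFD and 190 CPM in CD. At 5000 UMIs a Ttr UMI was present in 77.7% of δ cells in HFD (72.3 to 82.4) and 64.8% in CD (60.4 to 69.0), against 61.3% of endothelial-like cells in HFD (54.5 to 67.7) and 37.5% in CD (29.6 to 45.9). The δ cells with under 0.5% Gcg thus lay below endothelial-like cells by summed level in HFD and above them in CD. That comparison is uneven, since the endothelial-like cells were not split by Gcg. Their sums also leaned on few cells: the highest held 240 of 1403 Ttr UMIs in HFD and 91 of 327 in CD. The shares are of all δ cells, which lay above endothelial-like cells in both libraries. By summed level all δ cells also lay above them, at 717 CPM in HFD and 654 CPM in CD. Gc was not gathered in this way: δ cells with under 0.5% Gcg held 94.7% of the class's Gc UMIs in HFD and 93.9% in CD, at 140 CPM in HFD and 124 CPM in CD by total UMIs.

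The partners and targets of the vitamin D-binding protein were described from a list of 12 genes of vitamin D transport and metabolism. Of these, 6 had at least 50 UMIs in β cells over both libraries, with 1 past 1.5-fold higher in HFD among the 3 that also had 10 CPM, where 3.79% of all genes tested were. That one was Vdr, the vitamin D receptor, at 47.6 CPM in HFD and 30.3 CPM in CD (log2 ratio 0.65). Pdia3, an endoplasmic reticulum disulfide isomerase, was the most abundant, at 240 CPM in HFD and 274 CPM in CD. The median log2 ratio of the 6 was 0.11. That of all genes tested, -0.0031, is of genes with at least 10 CPM, a higher floor than 50 UMIs. Cubn, the receptor that takes up the vitamin D-binding protein in the kidney, and Cyp24a1, which breaks down active vitamin D, had 0 UMIs in β and α cells of both libraries. Cyp27b1, which makes active vitamin D, had 24 UMIs in HFD β cells and 10 in CD. In α cells 5 of the list had 50 UMIs, and Rxra, the retinoid partner of the receptor, had 16.4 CPM in HFD and 10.9 CPM in CD (log2 ratio 0.59). Of the albumin family and the actin scavengers, Afp had 0 UMIs in β and α cells of both libraries and Alb had 27 UMIs in HFD and 4 in CD β cells. Gsn, the actin-severing protein gelsolin, had 30.1 CPM in HFD and 31.9 CPM in CD β cells, and 12.5 CPM in HFD and 13.4 CPM in CD α cells.

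Among 15 genes of retinol and thyroid hormone carriage, 10 had at least 50 UMIs in β cells, with a median log2 ratio of 0.29. The median of all genes tested, -0.0031, is of genes with at least 10 CPM, a higher floor that 5 of the 10 met. Rbp4, the partner of transthyretin, was at 87.0 CPM in HFD and 92.9 CPM in CD β cells and at 667 CPM in HFD and 664 CPM in CD α cells. Serpina7, which encodes thyroxine-binding globulin and so shares the thyroxine cargo of transthyretin, had 24.5 CPM in HFD and 4.97 CPM in CD β cells, a log2 ratio of 2.30 (2.18 to 2.43). Its direction was the other in α cells, at 20.2 CPM in HFD and 25.8 CPM in CD, and in PP cells, at 27.9 CPM in HFD and 62.8 CPM in CD. Thra, a thyroid hormone receptor, had 17.9 CPM in HFD and 32.7 CPM in CD β cells, and 40.4 CPM in HFD and 53.0 CPM in CD α cells. No test set the β cell ratios of Serpina7 and Gc against each other.

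Of 18 other plasma protein genes, 9 had at least 50 UMIs in β cells, with a median log2 ratio of 0.47. The median of all genes tested, -0.0031, is of genes with at least 10 CPM, a higher floor than 50 UMIs. Of the 3 at 10 CPM, 2 were past 1.5-fold higher, against 3.79% of all genes tested. Apoa1 (0.0030, -0.48 to 0.48) and Trf (0.04, -0.56 to 0.64) had log2 ratios whose intervals held 0. Clu, the secreted chaperone clusterin, had 61.5 CPM in HFD and 36.6 CPM in CD, and Cp, which encodes ceruloplasmin, had 97 UMIs in HFD and 17 in CD. In α cells 5 of the list were measured at that depth, with a median of 0.15. Apoa2 had 32.9 CPM in HFD and 20.9 CPM in CD α cells, and Apoe 79.7 CPM in HFD and 68.4 CPM in CD. Of 9 liver-enriched transcription factors, 6 had 50 UMIs in β cells, and of the 3 at 10 CPM 0 were past 1.5-fold higher (3.79% of all genes) and 1 was past it lower (1.9%). Foxa2, a FOXA factor of liver and islet, had 67.4 CPM in HFD and 52.4 CPM in CD β cells, and Foxa3 had 12.6 CPM in HFD and 19.6 CPM in CD. In α cells 0 of the 3 at 10 CPM were past 1.5-fold higher (4.25% of all genes), and Cebpb, a liver and stress factor, had 50.9 CPM in HFD and 66.7 CPM in CD.

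Markers of other cell types moved with the libraries. In β cells all 7 α markers were detected, with a summed level of 2831 CPM in HFD and 2236 CPM in CD by total UMIs, nearly all of it Gcg. The 5 endothelial markers summed to 23.2 CPM in HFD and 7.65 CPM in CD, and the 6 acinar markers to 4.71 CPM in HFD and 14.4 CPM in CD. The 4 erythroid markers, all detected, summed to 44.0 CPM in HFD and 12.8 CPM in CD in β cells, and to 344 CPM in HFD and 4.61 CPM in CD in α cells. Of 8 α cell genes, 7 had 50 UMIs in β cells. Slc38a5, an amino acid transporter, had 2.29 CPM in HFD and 0.982 CPM in CD there, and Slc7a2, a cationic amino acid transporter, had 84.0 CPM in HFD and 86.3 CPM in CD. In α cells 2 of the 7 α cell genes at 10 CPM were past 1.5-fold higher, against 4.25% of all genes tested. There Slc7a2 had 210 CPM in HFD and 122 CPM in CD. The part of these markers in the Gc and Ttr levels was not tested. Of the 9 β cell genes at 10 CPM in β cells, 4 were past 1.5-fold higher in HFD (3.79% of all genes) and 1 past it lower (1.9%), with G6pc2 at 926 CPM in HFD and 515 CPM in CD and Ucn3 at 286 CPM in HFD and 155 CPM in CD. In α cells Slc30a8, a granule zinc transporter, had 370 CPM in HFD and 276 CPM in CD, and Ucn3 9.22 CPM in HFD and 3.26 CPM in CD. Of the 5 β cell immaturity genes, Aldh1a3 had 551 UMIs in HFD and 32 in CD β cells, and Gast, the gastrin gene, 53 UMIs in HFD and 30 in CD α cells. Each hormone in its own class lay within 1.5-fold between libraries: Ins1 had a log2 ratio of 0.13 and Ins2 of 0.08 in β cells, Gcg of -0.24 in α cells, Sst of 0.11 in δ cells and Ppy of 0.19 in PP cells.

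The genes whose level over the 8 class sums was most like that of Gc, by Pearson's r of log2(CPM + 1) among 7619 genes, were Tmem242 (0.94), Dusp6 (0.88), Dusp3 (0.88), Mxd4 (0.87) and Slc6a17 (0.87). Dusp6, a phosphatase of the mitogen-activated kinases, had its lowest value in CD β cells, at 1.82 CPM, against 6.05 CPM in HFD β cells. For Ttr the most alike were Zfp397 (0.99), Cpn1 (0.99), Cherp (0.99), Tmsb4x (0.98) and Cald1 (0.97), with Cpn1, a carboxypeptidase subunit of plasma, at 66.2 CPM in HFD and 64.0 CPM in CD α cells. The r between Gc and Ttr themselves was 0.36. Each r rests on 8 sums, of which 4 share a library, and no p is given.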

How the data were processed

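Both libraries were made from dispersed, hand-picked islets with the 10x Genomics 3' v3 chemistry, per the labels' protocols. The deposited matrices hold raw UMI counts per gene and barcode, for every possible barcode. Per the submitters' processing notes the authors used Cell Ranger 6.0.1 and mm10, while per the file headers the software was version 3.0.2. The authors' annotation was not stated. Of 31053 gene identifiers, 99.6% matched the GENCODE M21 annotation of GRCm38.

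The pair of genes, the gene lists and the rules were chosen with earlier results of these data known. Cells were kept and classed with the limits given in the report. Endothelial-like and macrophage-like cells were named from at least 3 of their 5 markers. Each class sum of UMIs was scaled by TMM factors taken over all 8 sums (edgeR 4.0.16, R 4.3.3). No test was run. Ratios have exact conditional binomial intervals and shares exact Clopper-Pearson intervals, both at 95%. UMIs are counting units of molecules, so these intervals hold no error between mice or libraries. The ratio step was tested on simulated data. Doublets were left in, and taking out the highest scores of the scrublet routine in scanpy 1.11.5, at 0.8% per 1000 barcodes, was an alternative, as were DESeq2 1.42.0 size factors. Genes named were the pair, the hormones, the 5 genes most like each of the pair and, per list in β and α cells, the most abundant member and the one farthest from a ratio of 1; Serpina7 outside β cells, Alb, Afp, Cubn, Cyp24a1, Cyp27b1 Apoa1, Trf, Pyy and the markers set beside Gc in β cells were added after their values were seen. A gene that this rule names is not reported here.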

Additional observations from a re-analysis of the deposited data

Results flagged for a closer look

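The ratio of HFD to CD for Ttr pointed one way in PP cells and the other way in the remaining hormone classes. On the log2 scale it was -0.0626 in PP cells, while it was 0.896 in β cells, 0.388 in α cells and 0.101 in δ cells. With 1 library per group each direction is that of 1 pair of sums, and the difference between classes was not tested. The PP value lay between -0.33 and 0.20 over the 15 alternatives, and the δ value changed sign under 5 of them.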

How the results depend on the processing

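No paired analysis was possible because the groups share a single replicate number, and no leave-one-out value exists with 1 library per group. The values below are log2 ratios, and an alternative is named where it moved a value beyond its counting interval; the subtraction of the 100 to 500 UMI profile, leaving out barcodes kept in both libraries and TMM within the pair were added after seeing the data.

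Gc in β cells was above CD in HFD under all 15 alternatives, between 2.19 (total UMIs) and 2.49 (free RNA of 10 to 100 UMI barcodes subtracted), with 2.38 without scrublet doublets, 2.43 with strict hormones (foreign hormones held to 0.2 of their limits) and 2.35 in cells of 2 to 4% mitochondrial UMIs. Ttr in β cells was 0.83 by total UMIs, 0.931 without hormone and mitochondrial genes, 0.910 from 3000 UMIs, 0.932 at up to 10% mitochondrial UMIs, 0.865 without doublets, 0.887 when thinned, 1.01 at 2 to 4% mitochondrial UMIs, 0.59 with cells weighted alike, 0.864 with the 100 to 500 UMI profile subtracted and 0.867 with TMM within the pair.

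In α cells Gc was 0.44 at 2 to 4% mitochondrial UMIs, and Ttr 0.365 by total UMIs, 0.340 without hormone and mitochondrial genes, 0.369 with DESeq2 size factors, 0.400 without doublets, 0.452 with strict hormones, 0.377 when thinned, 0.356 with cells alike, and 0.422 and 0.407 with the first and second free RNA profile subtracted. In δ cells Gc was 0.35 when thinned and 0.43 at 2 to 4% mitochondrial UMIs. Ttr in δ cells held no fixed direction. It was 0.19 without hormone and mitochondrial genes, 0.62 with strict hormones and 0.57 when thinned. It was -0.056 at up to 10% mitochondrial UMIs, -0.19 without doublets and -0.99 at 2 to 4% mitochondrial UMIs. With free RNA subtracted it was -4.49 by the first profile and -0.70 by the second. The first profile took 99.1% of δ Ttr in HFD and 77.4% in CD, the second 79.4% in HFD and 64.0% in CD. In PP cells Gc was 0.16 at 2 to 4% mitochondrial UMIs. Ttr there was -0.15 by total UMIs, -0.0074 without hormone and mitochondrial genes, -0.32 with strict hormones, -0.017 when thinned, -0.13 at 2 to 4% mitochondrial UMIs, -0.0075 with cells alike, and -0.33 and 0.20 with free RNA subtracted.

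The excess of α over β for Gc was, in HFD, 1.10 by total UMIs, 0.11 without hormone and mitochondrial genes, and 0.32 and 0.44 with free RNA subtracted. In CD it was 2.98 by total UMIs, 2.26 without doublets, 2.35 with strict hormones, 2.35 when thinned, and 2.39 and 2.41 with free RNA subtracted. For Ttr it was 4.70 in HFD and 5.17 in CD by total UMIs, 3.71 in HFD and 4.30 in CD without hormone and mitochondrial genes, and 3.88 in HFD and 4.41 in CD with DESeq2 size factors. It was 4.17 in HFD and 4.63 in CD without doublets, 4.39 in HFD and 4.83 in CD with strict hormones, and 3.93 in HFD and 4.44 in CD when thinned. It was 3.77 in HFD and 4.39 in CD at 2 to 4% mitochondrial UMIs and 3.82 in HFD and 4.06 in CD with cells alike. With free RNA subtracted it was 4.65 in HFD and 5.12 in CD by the first profile and 4.53 in HFD and 4.98 in CD by the second. In CD it was also 4.36 from 3000 UMIs and 4.38 at up to 10% mitochondrial UMIs.

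At 3000 UMIs the share of β cells with Gc was 16.5% in HFD and 4.03% in CD, and at 10000 UMIs 42.6% in HFD and 12.2% in CD; with Ttr it was 93.5% in HFD and 84.2% in CD at 3000, and 99.8% in HFD and 99.2% in CD at 10000. Genes past 1.5-fold in either direction numbered 392 in β, 384 in α, 624 in δ and 476 in PP cells. With a minimum of 50 CPM they numbered 125, 81, 102 and 76, with no CPM minimum 3300, 2280, 2340 and 2042, and by total UMIs 945 in δ cells. The cause of these moves was not tested. Depth limits Gc in δ and PP cells, where the sums rest on 473 to 619 UMIs.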

Other observations

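Kept cells outside the hormone classes also held both genes. Cells past the limits of more than 1 hormone, 143 in HFD and 144 in CD, had 124 Gc CPM in HFD and 90.1 in CD by total UMIs, and 11372 Ttr CPM in HFD and 10938 in CD. Cells with no hormone limit met and no marker set met, 493 in HFD and 326 in CD, had 72.3 Gc CPM in HFD and 54.7 in CD, and 3547 Ttr CPM in HFD and 3834 in CD. The kept cell with the most Gc was 1 of these CD cells, with 30 UMIs, and the highest such count in HFD cells of that kind was 15. These cells were put in no comparison.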
